A study of Homo sapiens with 6 samples.

Results

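The insulin-like growth factor (IGF) genes examined here were 2 ligands (IGF1, IGF2), 2 receptors (IGF1R, IGF2R) and 6 binding proteins (IGFBP2 to IGFBP7). They were taken by symbol from the deposited count table, where these 10 symbols fill 11 of 58395 gene rows, because IGF2 is listed under 2 identifiers. RNA sequencing was carried out in 6 libraries of H1, a human embryonic stem cell line derived from a blastocyst. By their labels 2 libraries are WT, 2 belong to a BRPF1 knockout set called KO 1# and 2 to a BRPF1 knockout set called KO 2#. BRPF1 is a scaffold protein of histone acetyltransferase complexes, and no allele, treatment, time or passage is given in the labels for any group. What 1# and 2# stand for, and whether replicates came from separate cultures, is not stated, so each p-value reflects the spread among these libraries alone, and that spread may be technical.

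IGF1 and IGF2 are secreted peptides related to insulin that signal through IGF1R, a tyrosine kinase receptor. IGF2R, also known as the cation-independent mannose 6-phosphate receptor, takes IGF2 into the cell for breakdown and carries enzymes to the lysosome. The binding proteins hold the ligands outside the cell and are cut by proteases that set the ligands free, and IGF1R signalling is known to support the self-renewal of human embryonic stem cells.

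The libraries held 33421785 to 38098779 counts. BRPF1 itself had 1483 and 1111 counts in the WT libraries, 1013 and 922 in the KO 1# libraries and 702 and 701 in the KO 2# libraries, and its log2 fold change of 0.08 in both knockout sets together did not pass the threshold under TMM scaling (SE 0.10, edgeR adjusted p = 0.508). It was called lower by library totals (-0.66, adjusted p = 7.15e-06) and when totals left out the 20 top genes (-0.32, adjusted p = 0.0076, edgeR), so its direction and call depended on the scaling. Counts per gene do not show whether a transcript carries an edit. The 10 pluripotency markers summed to between 6500.5 and 6665 CPM (TMM-normalised counts on a scale shared by all libraries) in the WT libraries and to between 21.2 and 40.8 in the knockout libraries, where NANOG was at 0 in 3 of 4. The 12 fibroblast and feeder cell markers summed to between 567.9 and 596 in WT, with LUM and FAP at 0 in both libraries, and to between 122018 and 134192 in the knockout libraries, with none at 0. In both sets together all 12 rose by TMM, where 35.8% of all tested genes were called higher and 41.4% lower. By library totals, with or without the 20 top genes, 11 rose and 1 fell. The labelled cell type, embryonic stem cell, is thus carried by its markers in WT and not in the knockout libraries. The sums of smooth muscle markers (8 genes) went from between 358 and 367 in WT up to between 3436 and 3892 in the knockouts. Most of either sum was CALD1, at 271 ± 6.62 in WT (SD, n = 2) and 2440 ± 163 in the knockouts (SD, n = 4). TAGLN rose from 46.9 ± 0.905 to 896 ± 74.9 and ACTA2 from 0.447 ± 0.0434 to 27.0 ± 4.83. Of the 8 smooth muscle markers 7 rose and 1 fell in both sets together. Those of trophoblast markers (10 genes) went from between 5.21 and 5.62 to between 127 and 155, with CGA and HSD3B1 at 0 throughout. Most of the trophoblast sum was KRT7, at 3.64 ± 0.879 in WT (SD, n = 2) and 128 ± 12.5 in the knockouts (SD, n = 4). GCM1 and XAGE2 were at 0 in each knockout library. The sums of endothelial markers (8 genes) went from between 143 and 148 down to between 21.4 and 41.1. Most of the WT sum was KDR (112 ± 0.368). PECAM1 rose from 0.143 ± 0.121 to 16.2 ± 1.48 in KO 1# and 6.71 ± 0.142 in KO 2# (SD, n = 2 in each group). Of 7 tested endothelial markers 1 rose and 4 fell in both sets together. Skeletal muscle markers (8 genes) went from between 65.6 and 70.5 down to between 2.23 and 3.82. Most of that WT sum was TNNT1 (43.5 ± 3.31) and ACTA1 (21.1 ± 0.118), and MYOD1 was at 0 in all libraries. These marker sums moved with every difference between WT and knockout given below, and their part in those differences was not tested. In bulk RNA more cells of a type and more RNA per cell cannot be told apart. Per library, 8 markers of liver and yolk sac, tissues known for IGF expression, summed to at most 0.792 CPM.

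Of the 10 genes, 9 passed the low-count filter and IGF1 did not. IGF2 passed it only through its knockout libraries, so its rise over WT was bound to be called. In KO 1# against WT 7 rose and 2 fell, and the same counts held in KO 2# against WT (edgeR quasi-likelihood test, adjusted p below 0.05 over 19660 genes). The genes that rose in each set were IGF2, IGF1R, IGF2R, IGFBP3, IGFBP4, IGFBP5 and IGFBP7, and those that fell were IGFBP2 and IGFBP6; only IGF1R changed direction under another scaling, by library totals with or without the 20 top genes. Over all tested genes 73.6% were called in KO 1# (35% higher, 38.7% lower), 73.7% in KO 2# (34.6% higher, 39.1% lower) and 77.3% in both sets together (35.8% higher, 41.4% lower), so most genes were called and a call alone does not set these genes apart. The median log2 fold change of the 9 genes was 2.03 in both sets together, beside -0.13 over all tested genes. Of all calls in both sets together 46.4% were higher, or 26.7% with libraries scaled by totals and 34.9% by totals that leave out the 20 top genes. The 10 genes held 0.153% ± 0.00519 of all counts in WT (SD, n = 2), against 0.694% ± 0.0340 in the knockouts (SD, n = 4).

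**Figure D1:**
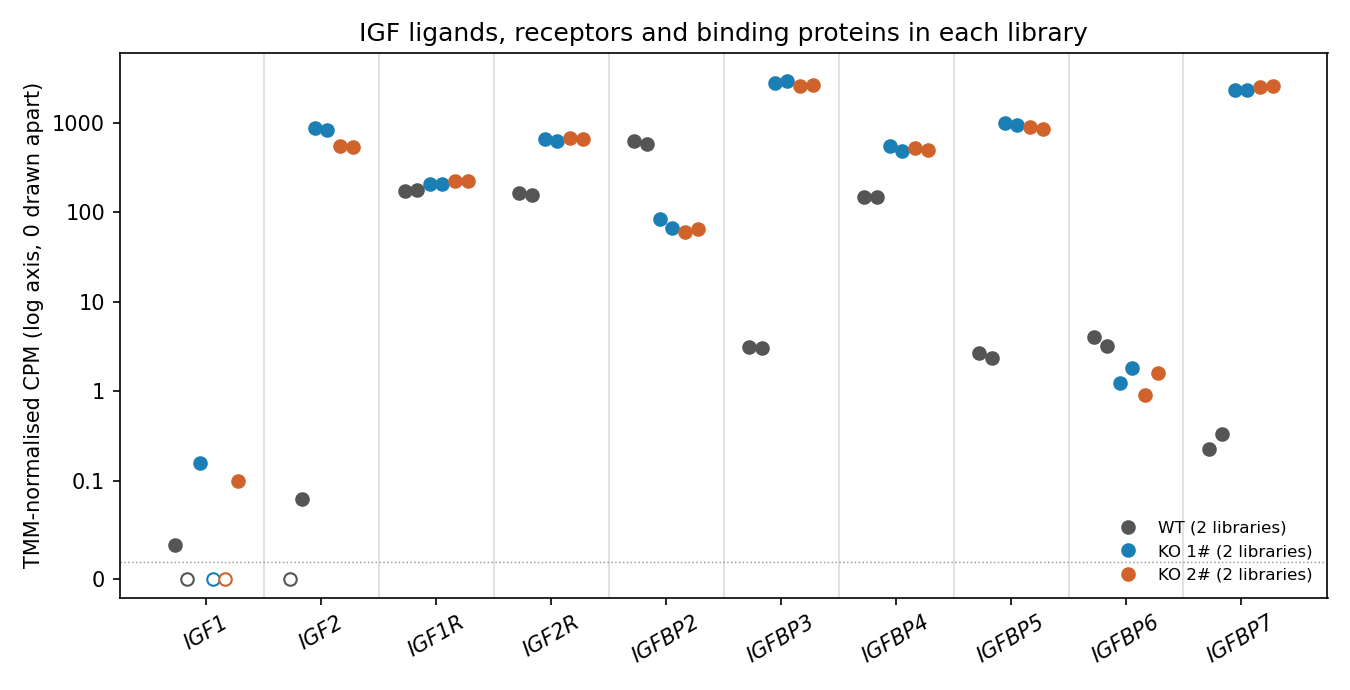
TMM-normalised CPM of the 10 genes in each of the 6 libraries, 1 point per library, on a log axis with libraries at 0 drawn as open points below the dotted line. The WT points lie below all knockout points for IGF2, IGF1R, IGF2R, IGFBP3, IGFBP4, IGFBP5 and IGFBP7 and above them for IGFBP2 and IGFBP6. Only IGF1 overlaps, and the order of IGF1R holds under TMM scaling but not under library totals. How many of all tested genes lack overlap was not counted. Since 77.3% of them were called in both sets together, lack of overlap alone does not set these genes apart.

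The ligands differed from each other. IGF2, the fetal growth factor (ENSG00000167244, GRCh38 chromosome 11, 2129112 to 2149603, minus strand), had 0 and 3 counts in the WT libraries, 27098 and 27527 in the KO 1# libraries and 15054 and 15884 in the KO 2# libraries. In normalised CPM this was 0 and 0.0625 in the WT libraries, 862 and 834 in the KO 1# libraries and 545 and 536 in the KO 2# libraries. The 3 groups did not overlap, with WT near 0 and KO 1# above KO 2#. Its level rose over WT by a factor of 28355 in KO 1# (exact 95% limits 9702 and 137499) and of 18070.0 in KO 2# (limits 6183 and 87628), limits that cover counting error only and rest on the 3 counts of WT replicate 2. The fitted log2 fold change was 13.64 in KO 1# and 12.99 in KO 2# without WT replicate 1, and 17.85 and 17.20 without WT replicate 2, where WT is at 0, so the size of the rise is not fixed by these libraries. IGF2 passed the low-count filter only through its knockout libraries, so no p-value is given for its change against WT.

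IGF1, the ligand that growth hormone induces in the liver (ENSG00000017427, chromosome 12, 102395874 to 102481744, minus strand), was barely counted. It had 1 and 0 counts in the WT libraries, 5 and 0 in the KO 1# libraries and 0 and 3 in the KO 2# libraries, so the groups overlapped and no test was made. At this depth no difference in IGF1 could be detected. The noncoding HELLPAR lies on the opposite strand across 82.4% of its exon bases, so even these reads may not all be its own.

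Reads of IGF2 are shared by annotation with other genes. The identifier ENSG00000284779, also named IGF2, covers 73.7% of its exon bases on the same strand, and INS-IGF2, a readthrough of insulin and IGF2, covers 20.9%. Both of these were at 0 in all 6 libraries. How the counting treated reads in shared exons is not given in the sources used here. If such reads were dropped, the counts of IGF2 come from the 1835 of 6979 exon bases that no other listed gene on its strand covers. The antisense gene IGF2-AS was at 0 in WT and had 402 and 320 counts in KO 1# and 242 and 240 in KO 2#. It was at least 164-fold higher in the knockout libraries (computed against 3 counts in each WT library), and its counts were 1.16 to 1.61% of those of IGF2 in each of these libraries. Without a stated strand setting, reads of IGF2 and IGF2-AS cannot be told apart where they overlap, which is over 333 exon bases. The microRNA gene MIR483, inside an IGF2 intron, was at 0 in WT and had 28, 20, 12 and 20 counts in the knockout libraries. H19, the noncoding RNA that is the imprinted neighbour of IGF2, 127641 bases away, went the other way. It had 14 and 18 counts in WT and 0 in each of 4 knockout libraries, at least 3.24-fold lower against 3 counts per library. H19 passed the low-count filter only through its WT libraries, so no p-value is given for it. It was kept under 11 alternative settings, where IGF2 was kept under 13.

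The receptors changed by unequal amounts. IGF2R (ENSG00000197081, chromosome 6, 159969099 to 160113507, plus strand) stood at 164 and 157 normalised CPM in the WT libraries, 656 and 621 in the KO 1# libraries and 682 and 659 in the KO 2# libraries. All knockout libraries lay above both WT libraries, and the fold was 3.98 in KO 1# (log2 1.99, SE 0.06, adjusted p = 3.36e-15) and 4.18 in KO 2# (log2 2.06, SE 0.06, adjusted p = 2.02e-15, edgeR). IGF1R (ENSG00000140443, chromosome 15, 98648539 to 98964530, plus strand) stood at 173 and 178 in the WT libraries, 209 and 209 in the KO 1# libraries and 225 and 223 in the KO 2# libraries. These groups did not overlap either, but the log2 fold change was only 0.25 in KO 1# (SE 0.06, adjusted p = 0.00149) and 0.35 in KO 2# (SE 0.06, adjusted p = 6.9e-05, edgeR).

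The direction of IGF1R depended on how libraries were scaled. In both sets together it was 0.30 by TMM (adjusted p = 7.3e-05), -0.09 by totals that leave out the 20 top genes (adjusted p = 0.118) and -0.43 by library totals (adjusted p = 5.53e-07, edgeR). These scalings moved the median of all tested genes from -0.13 to -0.53 and -0.86, and under TMM IGF1R lay 0.43 above that median. The change of IGF2R was 1.29 by library totals and stayed positive under every scaling tried. A ratio within a library does not depend on scaling. IGF2R had 0.948 and 0.880 counts for each count of IGF1R in the WT libraries, and 3.13, 2.97, 3.04 and 2.96 in the knockout libraries. The relation between the receptor transcripts thus moved towards IGF2R in 4 of 4 knockout libraries.

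**Figure D2:**
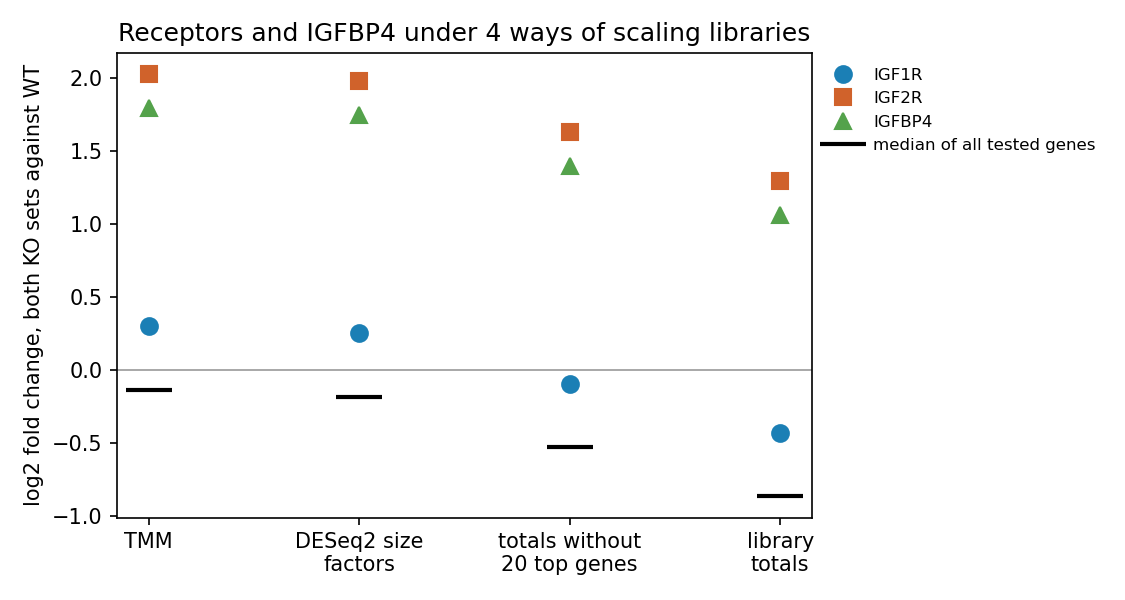
Log2 fold change of both knockout sets against WT for IGF1R, IGF2R and IGFBP4 under 4 ways of scaling libraries, with the median of all tested genes as black bars. IGF1R moves from 0.30 by TMM to -0.43 by library totals and stays above the median, while IGF2R and IGFBP4 stay above 0 under all 4.

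Partners of IGF2R in lysosomal sorting moved in both directions. Of 18 genes on that list, all tested, 12 rose and 5 fell in both sets together (median log2 fold change 0.78), or 8 and 7 by library totals (median 0.05). By TMM 35.8% of all tested genes were called higher and 41.4% lower. LRP1, an endocytic receptor, rose to 2485 ± 108 normalised CPM in the knockouts (SD, n = 4) over a WT level of 462 ± 26.8 (SD, n = 2). PLAUR, the urokinase receptor, which binds IGF2R, rose from 9.04 ± 0.354 to 156 ± 11.6. AP1M1, an adaptor subunit for transport from the Golgi, rose from 31.7 ± 1.44 to 117 ± 2.71. SORL1, a sorting receptor, fell from 218 ± 0.964 to 4.24 ± 0.669.

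The make-up of the binding protein transcripts differed between WT and knockout libraries. Compared per length, as counts per kb of exon within each library, IGFBP2 made up 64.9 and 63.1% of the 6 listed IGFBP transcripts in the WT libraries and IGFBP4 33.1 and 35.02%. In the knockout libraries IGFBP7 made up 53.6 and 54.5% in KO 1# and 57.5 and 58.6% in KO 2#, and IGFBP3 27.4 and 28.5% in KO 1# and 25.1 and 25.2% in KO 2#. IGFBP2 was left with 0.563 to 0.788%. No share of IGFBP2, IGFBP3, IGFBP4, IGFBP5, IGFBP6 or IGFBP7 overlapped between WT and knockout libraries, which was not compared with other gene families. The summed level went from 197 ± 8.85 normalised CPM per kb of exon (WT, SD, n = 2) up to 2247 ± 22.9 (knockouts, SD, n = 4). By coding length the order in the knockout libraries was not resolved, with 38.7% for IGFBP7 and 38.4% for IGFBP3, and by counts without length IGFBP3 led with 40.9%.

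**Figure D3:**
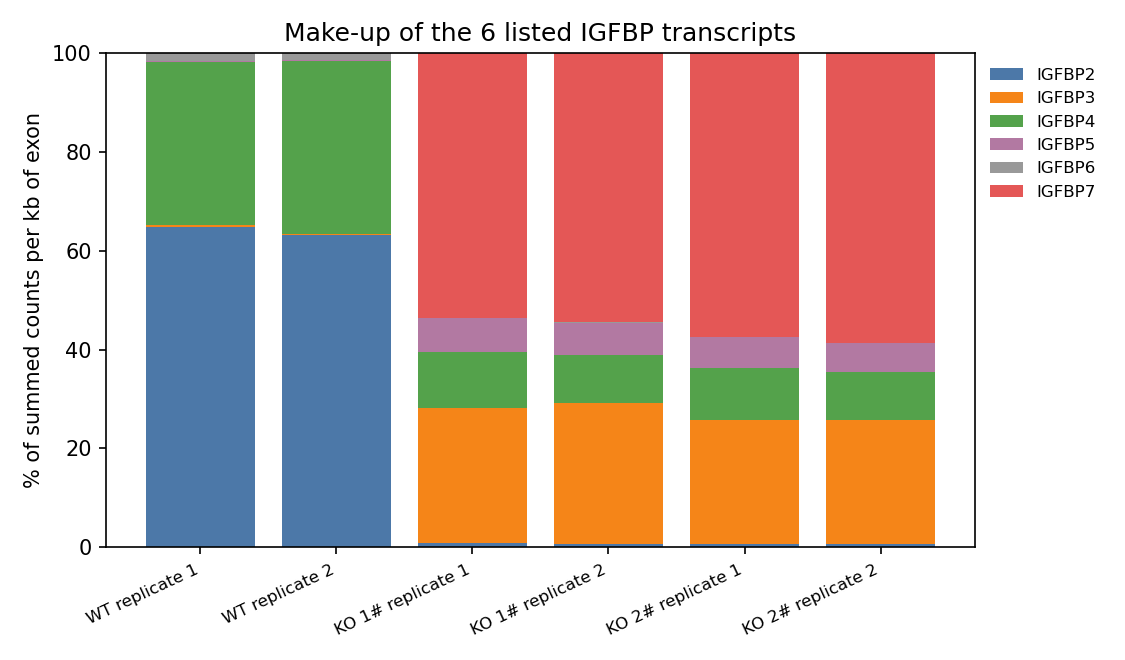
Stacked bars of the share of each of the 6 listed IGFBP transcripts in every library, in percent of their summed counts per kb of exon. IGFBP2 and IGFBP4 fill the WT bars, and IGFBP7 and IGFBP3 fill most of each knockout bar.

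IGFBP2 (ENSG00000115457, chromosome 2, 216632828 to 216664436, plus strand), a binding protein of fetal tissues, had 628 and 573 normalised CPM in the WT libraries, 83.9 and 66.5 in the KO 1# libraries and 60.4 and 65.6 in the KO 2# libraries. Every knockout library was far below WT, and the fall was 7.99-fold in KO 1# (log2 SE 0.09, adjusted p = 4.54e-15) and 9.53-fold in KO 2# (log2 -3.25, SE 0.10, adjusted p = 1.75e-15, edgeR). IGFBP5 (ENSG00000115461, chromosome 2, 216672105 to 216695525, minus strand) is its neighbour, with 7668 bases and no annotated gene between their 3′ ends. IGFBP5, which binds matrix as well as IGF, moved the other way, from 2.66 and 2.37 in WT to 984 and 933 in KO 1# and 899 and 855 in KO 2#. The rise was 380-fold in KO 1# (log2 8.57, SE 0.09, adjusted p = 2.00e-21) and 347-fold in KO 2# (log2 8.44, SE 0.09, adjusted p = 2.34e-21, edgeR). The antisense AC007563.2 overlaps IGFBP5 but was at 0 in all libraries.

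IGFBP3 (ENSG00000146674, chromosome 7, 45912245 to 45921874, minus strand), the main carrier of IGF in blood and a known p53 target, had 3.10 and 3.08 normalised CPM in WT. It reached 2803 and 2898 in KO 1# and 2584 and 2619 in KO 2#, all far above WT. The fold was 921 in KO 1# (log2 9.85, SE 0.08, adjusted p = 1.09e-22) and 841 in KO 2# (log2 9.72, SE 0.08, adjusted p = 9.46e-23, edgeR). Its tail-to-tail neighbour IGFBP1, 18576 bases away with no annotated gene between, had 1 and 0 counts in WT and 0 in each knockout library. The 2 neighbouring pairs of this family each held a member that rose strongly beside a member that fell or was barely counted.

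IGFBP7 (ENSG00000163453, chromosome 4, 57030773 to 57110385, minus strand), a secreted relative that binds IGF weakly, had 12 and 16 counts in WT. In normalised CPM it stood at 0.229 and 0.333 in the WT libraries, 2314 and 2340 in the KO 1# libraries and 2498 and 2575 in the KO 2# libraries. Its log2 fold change was 13.01 in KO 1# (SE 0.11, adjusted p = 1.22e-22) and 13.13 in KO 2# (SE 0.11, adjusted p = 9.46e-23, edgeR), a size that rests on few WT counts. POLR2B on the opposite strand covers 14.0% of its exon bases and had more counts in WT (5396 and 5279) than in the knockout libraries (2151 to 2835). IGFBP3 and IGFBP7 together held 4.73e-04% of all counts in WT and 0.435% in the knockout libraries.

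IGFBP4 (ENSG00000141753, chromosome 17, 40443461 to 40457731, plus strand), which mostly inhibits IGF action, stood at 148 and 147 normalised CPM in the WT libraries, 554 and 481 in the KO 1# libraries and 526 and 490 in the KO 2# libraries. It rose 3.51-fold in KO 1# (log2 1.81, SE 0.07, adjusted p = 1.27e-13) and 3.45-fold in KO 2# (log2 1.78, SE 0.07, adjusted p = 1.52e-13, edgeR). Its level rose while its share of the 6 listed binding proteins fell to between 9.77 and 11.3%. IGFBP6 (ENSG00000167779, chromosome 12, 53097436 to 53102345, plus strand), which prefers IGF2 over IGF1, was low throughout, at 4.05 and 3.21 normalised CPM in the WT libraries, 1.24 and 1.82 in the KO 1# libraries and 0.906 and 1.62 in the KO 2# libraries. It fell by 1.24 on the log2 scale in KO 1# (SE 0.35, adjusted p = 0.00406) and by 1.52 in KO 2# (SE 0.36, adjusted p = 0.00111, edgeR). The call in KO 1# was lost without WT replicate 1 (log2 -1.07, adjusted p = 0.0606).

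RefSeq promoter windows (GRCh38.p14, 250 bases before to 50 after a transcript start) were found for 8 of the 10 genes. Those of IGF2 and IGFBP7 were not in the table used. The windows of the neighbours IGFBP2 and IGFBP5, which moved in opposite directions, and of IGFBP3 and IGFBP4, which rose, are shown for comparison of their core promoters. Capitals mark a TATA-like hexamer (TATAAA or TATATA or TATTTA) on the strand of the gene beginning 20 to 40 bases before the start, a search chosen after the windows were seen. Of the 3 windows listed for IGFBP2, the one 25 bases from the start of its principal GENCODE transcript is printed.
IGFBP2, chr2:216633170-216633469, plus strand: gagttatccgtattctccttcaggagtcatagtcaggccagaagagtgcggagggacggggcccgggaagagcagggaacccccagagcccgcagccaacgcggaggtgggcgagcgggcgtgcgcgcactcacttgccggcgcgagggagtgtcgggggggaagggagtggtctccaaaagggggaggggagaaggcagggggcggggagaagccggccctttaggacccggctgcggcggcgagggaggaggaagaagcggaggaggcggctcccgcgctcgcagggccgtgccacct
IGFBP5, chr2:216695500-216695799, minus strand: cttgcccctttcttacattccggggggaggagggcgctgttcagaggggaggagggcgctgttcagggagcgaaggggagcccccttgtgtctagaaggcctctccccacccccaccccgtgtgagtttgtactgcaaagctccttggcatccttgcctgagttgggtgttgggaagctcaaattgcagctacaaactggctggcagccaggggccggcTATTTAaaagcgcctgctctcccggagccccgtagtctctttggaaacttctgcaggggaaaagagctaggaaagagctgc
IGFBP3, chr7:45921223-45921522, minus strand: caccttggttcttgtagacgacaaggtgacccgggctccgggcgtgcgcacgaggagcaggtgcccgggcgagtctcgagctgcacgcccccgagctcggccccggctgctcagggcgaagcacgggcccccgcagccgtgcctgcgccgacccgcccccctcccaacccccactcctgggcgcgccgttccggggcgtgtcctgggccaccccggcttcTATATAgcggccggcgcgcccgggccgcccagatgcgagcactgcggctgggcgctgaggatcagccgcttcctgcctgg
IGFBP4, chr17:40443200-40443499, plus strand: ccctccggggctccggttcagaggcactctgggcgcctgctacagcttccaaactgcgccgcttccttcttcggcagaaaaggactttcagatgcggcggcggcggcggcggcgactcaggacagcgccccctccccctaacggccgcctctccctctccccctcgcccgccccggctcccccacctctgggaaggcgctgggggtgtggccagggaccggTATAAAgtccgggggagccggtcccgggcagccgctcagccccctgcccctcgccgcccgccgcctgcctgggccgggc

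Such a hexamer began 30 bases before the start in IGFBP3 (TATATA), 29 in IGFBP4 (TATAAA) and 31 in IGFBP5 (TATTTA). Of 35116 promoter windows in the table, 3.83% held one at that place. None of the windows of IGFBP2, IGFBP6, IGF1, IGF1R or IGF2R did. The windows also differed in CpG number, with 55 in IGF1R, 41 in IGF2R, 36 in IGFBP3, 30 in IGFBP4, 28 in the printed window of IGFBP2, 12 in IGFBP6 and 9 in IGFBP5, beside a median of 14 over all windows. The GC box GGGCGG, searched on both strands, was in 45.0% of all windows, and in those of IGF1R, IGF2R, IGFBP3, IGFBP4, IGFBP6 and the printed window of IGFBP2 but in none of those of IGF1 and IGFBP5. The windows of the IGFBP genes that rose thus ranged from 9 to 36 CpG, beside quartiles of 4 and 28 over all windows. IGFBP7 had no window. These matches describe the letters only.

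Ranked per length, the order of the genes changed between WT and knockout. In WT, IGFBP2 stood at 126 ± 8.12 normalised CPM per kb of exon (SD, n = 2 here and below), above IGFBP4 at 67.0 ± 0.292, IGF1R at 12.6 ± 0.290, IGF2R at 8.99 ± 0.266 and IGFBP6 at 2.70 ± 0.444. Below these lay IGFBP3 at 0.676 ± 0.00220, IGFBP5 at 0.391 ± 0.0310, IGFBP7 at 0.146 ± 0.0380, and IGF2 and IGF1, whose values of 0.00448 ± 0.00633 and 0.00118 ± 0.00166 overlap. In KO 1#, IGFBP7 led at 1206 ± 9.56, followed by IGFBP3 at 624 ± 14.6, IGFBP4 at 235 ± 23.4, IGFBP5 at 149 ± 5.61, IGF2 at 122 ± 2.86 and IGF2R at 35.8 ± 1.36. There IGFBP2 at 15.8 ± 2.59 and IGF1R at 15.0 ± 6.90e-05 did not differ beyond their spread, and IGFBP6 (1.14 ± 0.303) and IGF1 were lowest. In KO 2# the order was the same down to IGF2R, with IGFBP7 at 1314 ± 28.4, IGFBP3 at 569 ± 5.44, IGFBP4 at 231 ± 11.6, IGFBP5 at 136 ± 4.89, IGF2 at 77.5 ± 0.980 and IGF2R at 37.6 ± 0.915. IGF1R (16.1 ± 0.0824) then stood above IGFBP2 (13.2 ± 0.767). Per kb of unshared exon IGF2 would stand at 470.0 and 455 in KO 1# and 297 and 292 in KO 2#, so its place between IGFBP3 and IGF2R is uncertain. Among 19636 tested genes with a length, IGFBP7 ranked 23 to 25 and IGFBP3 36 to 40 in the knockout libraries, and IGFBP2 140 and 155 in WT.

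The knockout sets were then compared with each other. Here 3.86% of all tested genes were called (1.58% higher and 2.28% lower), 759 of 19660, or 1397 without KO 1# replicate 2, 477 without KO 2# replicate 1 and 366 without KO 2# replicate 2. Of the 759 calls 41% were higher, or 25.7% by library totals, 30.5% when totals left out the 20 top genes and 52.9% by the DESeq2 Wald test. Of the 9 tested IGF genes 1 fell, IGF2, and 0 rose. At an unadjusted p below 0.05 by edgeR 3124 of all genes passed. IGF2 was 1.57-fold lower in KO 2# than in KO 1# (log2 -0.65, SE 0.07, adjusted p = 1.37e-05, edgeR), with both KO 2# libraries below both KO 1# libraries. Over 14 alternative settings this value ranged from -0.70 to -0.63 and the adjusted p from 1.04e-30 to 4.85e-04. Of the other 8 genes the log2 difference lay between -0.27 (IGFBP6, SE 0.39) and 0.12 (IGFBP7, SE 0.05), and none passed, though IGFBP2 did without KO 1# replicate 2 (-0.40, adjusted p = 5.56e-05, edgeR). IGF2-AS did not pass (log2 -0.42, SE 0.20, adjusted p = 0.330).

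**Figure D4:**
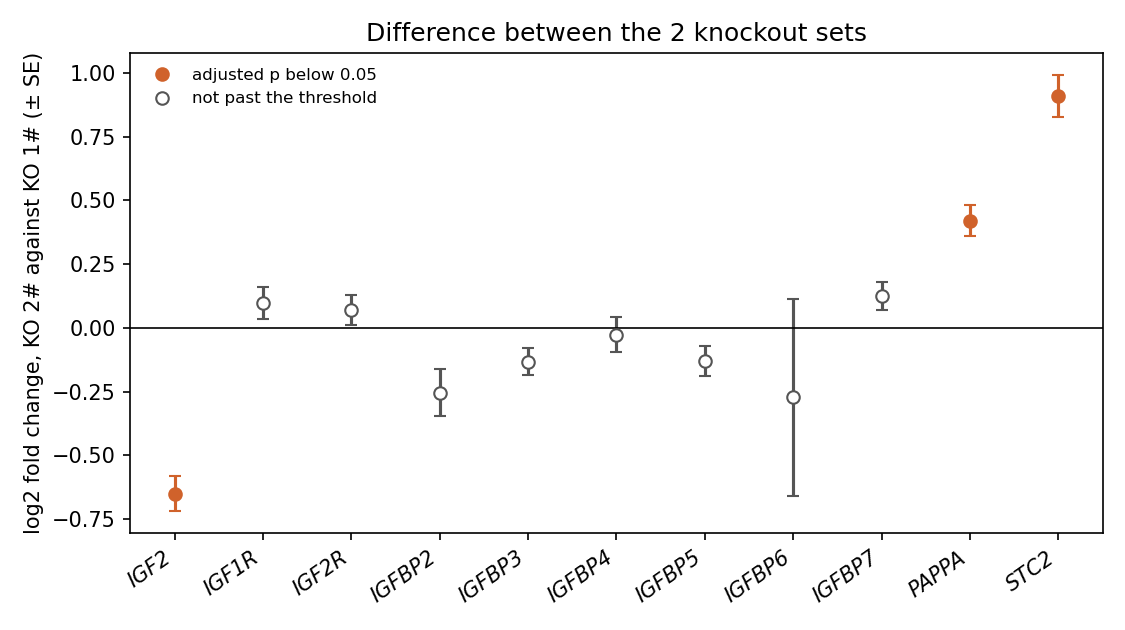
Log2 fold change of KO 2# against KO 1# with its SE for the 9 tested genes and for PAPPA and STC2, a protease of binding proteins and its inhibitor. IGF2 (-0.65), PAPPA (0.42) and STC2 (0.91) are past the threshold and drawn filled; the other 8 are open.

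Most tested proteases of binding proteins rose. Of 12 genes on the list of these proteases and their inhibitors 10 were tested, of which 7 rose and 2 fell in both sets together (median log2 fold change 3.04), or 6 and 3 by library totals. Beside this, 35.8% of all tested genes were called higher and 41.4% lower by TMM. PAPPA, which cuts IGFBP4 and IGFBP5, had 40 and 25 counts in the WT libraries, 33031 and 36082 in the KO 1# libraries and 39760 and 42388 in the KO 2# libraries. It rose from 0.643 ± 0.172 normalised CPM (SD, n = 2) to 1072 ± 29.8 in KO 1# and 1435 ± 7.67 in KO 2#, and was higher in KO 2# than in KO 1# (log2 0.42, SE 0.06, adjusted p = 3.92e-04, edgeR). STC1 and STC2, the stanniocalcins, inhibit PAPPA. STC1 fell from 42.6 ± 1.23 in WT to 1.26 ± 0.527 in KO 1# and 0.678 ± 0.139 in KO 2#. STC2 stood at 70.7 ± 0.662 in WT, 84.2 ± 8.52 in KO 1# and 158 ± 12.5 in KO 2#, and KO 2# was above KO 1# by 0.91 (SE 0.08, adjusted p = 3.00e-06, edgeR). In KO 1# against WT the sign of STC2 followed the scaling, 0.25 by TMM (adjusted p = 0.0116, edgeR) and -0.46 by library totals, and the TMM call was lost without KO 1# replicate 1 (adjusted p = 0.10001, log2 0.15) and by the DESeq2 Wald test (adjusted p = 0.053, log2 0.19). ADAM12, which cuts IGFBP3 and IGFBP5, rose from 0.326 ± 0.107 to 305 ± 25.7 (SD, n = 4), and HTRA1, which cuts IGFBP5, from 9.43 ± 0.0360 to 591 ± 49.9.

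Other relatives of the family moved in both directions. Of 26 listed genes 11 were tested, and 5 rose and 4 fell in both sets together (median log2 fold change 1.02). Over all tested genes 35.8% were called higher and 41.4% lower, so these counts do not set the list apart. INSR, the insulin receptor, fell from 33.3 ± 0.272 normalised CPM in WT to 13.8 ± 1.28 in the knockout libraries (log2 -1.27, SE 0.10, adjusted p = 1.63e-09, edgeR). GHR, the growth hormone receptor, rose from 0.251 ± 0.0575 to 6.66 ± 1.74, and KAZALD1, an IGFBP-related protein, from 2.21 ± 0.205 to 19.9 ± 2.65. IGFL3, of a separate IGF-like family, had 2 WT counts in all, both in WT replicate 2, and its ratio to WT was 949 (exact interval at 95%, 262 to 7837). IGFBPL1 fell from 20.1 ± 0.220 to 0.979 ± 0.546 and was higher in KO 2# than in KO 1# (log2 1.44, adjusted p = 0.0197), a call lost when KO 1# replicate 1 (1.04, adjusted p = 0.114), KO 2# replicate 1 (1.39, adjusted p = 0.0653) or KO 2# replicate 2 (1.49, adjusted p = 0.0544, edgeR) was left out, and when the fit held only the 4 knockout libraries (1.45, adjusted p = 0.133).

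The list of regulators held both directions. Of 21 genes of the IGF2 locus and its regulators 18 were tested, with 5 higher and 10 lower in both sets together (median -0.91), or 4 and 14 by library totals. All tested genes gave 35.8% higher and 41.4% lower by TMM. LIN28A, an RNA-binding protein of embryonic cells, fell from 1361 ± 17.2 normalised CPM in WT to 0.144 ± 0.122 in the knockout libraries, and CTCFL, a relative of the insulator protein CTCF, from 9.62 ± 0.329 to 0 counts in each. PLAGL1, an imprinted zinc finger factor, rose from 1.46 ± 0.526 to 41.4 ± 3.13.

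Signalling genes below the receptors moved both ways. Of 54 listed genes 53 were tested, with 29 higher and 18 lower in both sets together (median 0.30), but 15 higher and 33 lower by library totals (median -0.43) and 21 and 25 by totals that leave out the 20 top genes. Which direction was more common in this list therefore depended on the scaling. By TMM the shares over all tested genes were 35.8% higher and 41.4% lower. Among the receptor substrates IRS1 rose from 53.8 ± 2.49 to 117 ± 13.3 normalised CPM (log2 1.12, SE 0.08, adjusted p = 4.58e-10), and IRS4 fell from 9.44 ± 0.319 to 0.0770 ± 0.111. IRS2 stood at 40.3 ± 5.30 and 42.4 ± 4.22 (log2 0.07, adjusted p = 0.493, edgeR). It was called lower by library totals (-0.66, adjusted p = 2.36e-06) and when totals left out the 20 top genes (-0.32, adjusted p = 0.00371, edgeR). GRB10, an imprinted adaptor that dampens the receptors, fell from 104 ± 4.03 to 40.3 ± 1.61 in KO 1# and 31.2 ± 0.771 in KO 2#. The difference between the sets was -0.37 (adjusted p = 0.0189), a call lost when KO 2# replicate 1 (-0.35, adjusted p = 0.181) or KO 2# replicate 2 (-0.40, adjusted p = 0.120, edgeR) was left out. PHLPP1, a phosphatase of AKT, fell from 115 ± 5.49 to 6.90 ± 1.63, the transcription factor FOXO1 from 75.9 ± 0.864 to 9.48 ± 1.02, and the adaptor SHC2 rose from 3.64 ± 0.372 to 30.1 ± 3.83.

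Of 24 FOXO target and insulin feedback genes 20 were tested, with 12 higher and 6 lower (median 1.06), or 11 and 9 by library totals. The shares over all tested genes were 35.8% higher and 41.4% lower by TMM. TNFSF10, the death ligand TRAIL, rose from 0.0382 ± 0.0541 to 33.4 ± 4.64 normalised CPM, PIK3IP1, an inhibitor of PI3 kinase, from 3.72 ± 0.169 to 37.6 ± 5.14, and FBXO32, a ubiquitin ligase, from 0.851 ± 0.446 to 5.54 ± 1.21. KLF15, a metabolic transcription factor, fell from 13.6 ± 0.558 to 2 counts in 1 knockout library and 0 in the others.

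Genes with the most similar pattern over the 6 libraries were found by Euclidean distance between centred log2 CPM, among 19659 other tested genes. Nearest to IGF2 were ITGA11, a collagen-binding integrin (distance 0.87), IGFBP7 (0.94) and the proteoglycan LUM (1.12). Among the genes near IGFBP3 were LTBP2, a matrix protein related to TGF-beta binding proteins (0.31), and ADAM12 (0.54). Nearest to IGF1R were the mitochondrial phosphate carrier SLC25A3 (0.04), the nuclear transport factor NUTF2 (0.05) and MORF4L1, a subunit of chromatin complexes (0.05). The 6 points come from 3 groups, so these distances mainly describe the difference between WT and knockout.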

How the data were processed

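Per the labels' protocols, RNA was extracted with Trizol and sequenced after TruSeq library preparation. The authors deposited raw counts for each gene and library. The submitters' processing notes name HISAT2 2.0.4, SAMtools 1.3.1, HTSeq 0.6.0, DESeq 1.18.1 and GRCh38, without roles; no annotation release or strand setting is named. Positions and overlaps came from GENCODE 29 (58275 of 58395 identifiers found). The members, lists and tests were chosen with earlier results of these data known.

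Counts were scaled by TMM and fitted with edgeR 4.0.16 (R 4.3.3) in 1 quasi-likelihood fit of 6 libraries and 3 groups, with 3 residual degrees of freedom. The filter filterByExpr (minimum count 10) kept 19660 genes. Tests were two-sided, adjusted by Benjamini-Hochberg over these genes; standard errors came from the F statistic. Lists gave counts only. All 10 members were named, with up to 4 called genes of each list by size of change at an average log2 CPM of at least 1, and a fixed set (H19, IGF2-AS, INS-IGF2, INSR, IGFBP1, PAPPA, STC2, IRS1, IRS2, GRB10, BRPF1); MIR483, HELLPAR, POLR2B, AC007563.2 and ENSG00000284779 were added as overlapping genes. Replicates of each group differed beyond sampling noise (chi-square per degree of freedom 4.26 to 11.4). Intervals and floors of 3 counts cover counting error only. Alternatives were other scalings, filters, DESeq2 1.42.0, a replicate block and leaving out each library.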

Additional observations from a re-analysis of the deposited data

Results flagged for a closer look

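Differences between the 2 knockout sets were tested as KO 2# against KO 1# with edgeR, where 3.86% of all tested genes were called. Among the IGF genes, the fixed set and the genes named from lists other than cell type markers, 5 passed. On the log2 scale these were -0.65 for IGF2, 0.42 for PAPPA, 0.91 for STC2, -0.37 for GRB10 and 1.44 for IGFBPL1. Of the cell type markers named, PECAM1 (-1.27, adjusted p = 9.17e-04) and ACTA1 (3.02, adjusted p = 0.0359, edgeR) also passed. ACTA1 had only 3, 0, 8 and 15 counts in the knockout libraries.

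Among the 4 knockout libraries 2 of 39 genes checked had a library far from the others, and chance flags about 1 in 20 such groups. IRS4 had 1, 8, 0 and 1 counts, where the gap of the highest library was 0.861 of the range in normalised CPM. KLF15 had 0, 0, 2 and 0 counts, where that gap was 1.0 of the range. Both rest on few counts.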

How the results depend on the processing

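In KO 1# and KO 2# against WT the log2 fold changes of IGF2, IGF2R, IGFBP2, IGFBP3, IGFBP4, IGFBP5 and IGFBP7 kept their direction and call under all 14 alternatives. IGF1R was -0.46 in KO 1#, -0.41 in KO 2# and -0.43 in both by library totals, and -0.13, -0.063 and -0.095 when totals left out the 20 top genes. By these scalings STC2 was -0.46 and -0.13 in KO 1# and, by library totals, -0.027 in both; IRS2 was -0.66 and -0.32, and BRPF1 -0.66 and -0.32, all 4 called lower. By library totals 3 of the 10 genes fell in each set against WT, with IGF1R the third. Leaving out 1 library each in turn, IRS2 ranged from -0.059 to 0.21 and BRPF1 from -0.064 to 0.23, both negative without WT replicate 2. In KO 2# against KO 1#, where neither was called, IGFBP4 then ranged from -0.12 to 0.078 and IGFBP6 from -0.76 to 0.078. Leaving out 1 library in turn, the number of the 10 genes that fell was 1 to 2 in KO 1# against WT and 1 to 2 in KO 2# against KO 1#, the second being IGFBP2 without KO 1# replicate 2 (-0.40, adjusted p = 5.56e-05). Over all genes KO 2# against KO 1# gave 366 to 1397 calls: 1397 without KO 1# replicate 2, 477 without KO 2# replicate 1 and 366 without KO 2# replicate 2. Without a low-count filter IGFBP2 was also called, making 2 lower. By the DESeq2 Wald test 1 was higher, IGFBP7 (0.14, adjusted p = 0.0483). The cause of these changes was not tested.

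Equal replicate numbers are not said to mark a shared culture, and correlations of their deviations between groups were 0.01 to 0.03. With a replicate block 1634 genes were called in KO 2# against KO 1#, of the 10 genes 1 higher (IGFBP7) and 3 lower (IGF2, IGFBP3 at -0.13 and IGFBP5 at -0.13).

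The mean share of IGFBP2 in WT, 64.0% per kb of exon, was 73.6% per coding length, 65.4% per longest transcript and 79.3% by counts; that of IGFBP4 in WT, 34.0%, was 25.01, 32.2 and 19.5%. In the knockout libraries that of IGFBP3, 26.5%, was 38.4, 34.98 and 40.9%, and that of IGFBP7, 56.1%, was 38.7, 52.7 and 36.5%. The settings for genes named beside the members were added after seeing the data. Depth limits IGF1, and the WT levels of IGF2 and IGFBP7.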
